A study of Petunia x hybrida with 8 samples.

Results

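The most abundant transcripts of the petunia corolla, the ring of petals, were examined as a set. Members were the gene IDs whose CPM (counts of a gene per 1000000 counts of its library) averaged at least 1000 over 6 RNA libraries, leaving out IDs of scaffold Peaxi162Scf00408. This rule took 82 of the 35812 IDs in the deposited count table, and all 82 passed the filter on low counts. No ID of Peaxi162Scf00408 would have passed, since the highest of its 53 IDs averaged 148.8 CPM. The rule read measured levels, averaged over both groups, so the levels and the order of the members are a description without a test. It did not read the difference between the groups.

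The libraries were 3 of odo1i corolla and 3 of wild type (WT) corolla of Petunia x hybrida, each group with replicates numbered 1, 2 and 4, made from polyA RNA with oligo-dT. ODO1, short for ODORANT1, belongs to the R2R3-MYB family of transcription factors. The labels do not explain odo1i, which is taken here to mean silencing of ODO1. The sources used here give neither the cultivar, the age of the flowers and the hour of sampling nor the number of plants behind a library. The series also holds 2 anti-GFP ChIP libraries of corolla, 1 named pODO1 and 1 named 35S after a strong plant virus promoter, with 1 peak list each. The RNA libraries ask how odo1i corolla differs from WT corolla in its transcripts. Library totals ran from 18612881 to 20591367 counts. Whether replicates are separate plants is not said in the labels, so the p-values cover the spread of these libraries, which may be technical. WT replicate 4 stood apart from the other WT libraries and had the lowest quality weight of the 6, at 0.239 (limma-voom), so results that were seen to rest on it are given with and without it.

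Petunia corollas give off a strong scent of benzenoid and phenylpropanoid volatiles, which are made from phenylalanine. In petunia, ODO1 is known to switch on genes of the shikimate pathway, which supplies phenylalanine, and of the steps that follow it. Petals also transcribe genes for pigment, cell walls and defence. Gene names were not used here, so the members are given by ID and no function is assigned to them. The level of ODO1, the odo1i label and the markers of petal tissue were likewise not checked. Gene lengths were not used either, so the order given here is an order of reads and not of transcript numbers.

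The members took a like share of all counts in both groups. Their share was 28.3%, 27.5% and 24.4% in odo1i replicates 1, 2 and 4, against 28.9%, 29.9% and 23.2% in WT replicates 1, 2 and 4. The groups overlapped, with a mean of 26.8% ± 2.08 in odo1i and 27.3% ± 3.63 in WT (SD, n = 3 each). Replicate 4 had the lowest share of its group in odo1i and in WT, and the WT library of that number stood furthest below its group. The difference of -0.56 percentage points gave an exact two-sided permutation p of 0.7, where 3 against 3 libraries cannot go below 0.1. Its sign turned when odo1i replicate 4, WT replicate 1 or WT replicate 2 was left out, and it was -2.64 points without WT replicate 4.

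**Figure D1:**
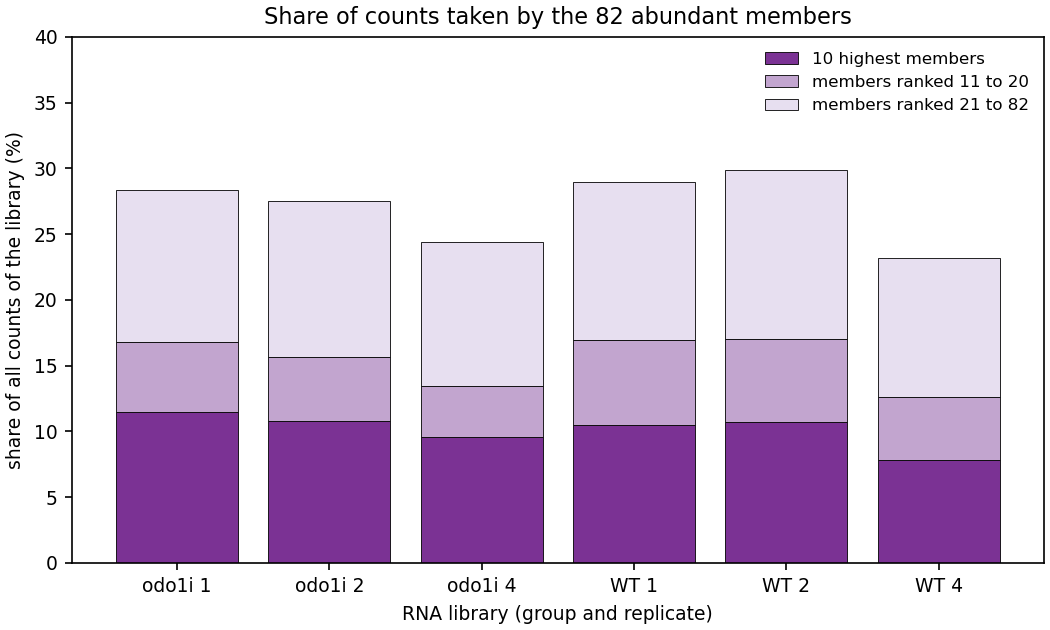
Stacked bars give the percentage of all counts of each library that fell on the 10 highest members, on those ranked 11 to 20 and on those ranked 21 to 82. The bars reach 24.4% to 28.3% in the odo1i libraries and 23.2% to 29.9% in the WT libraries, with replicate 4 lowest in each group.

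Within the members the counts were concentrated further. The 10 highest held 10.6% ± 0.954 of all counts in odo1i and 9.66% ± 1.61 in WT (SD, n = 3 each). Most of that gap of 0.939 percentage points went with WT replicate 4, since without it the means were 10.60% in odo1i and 10.59% in WT, 0.0127 points apart. The single highest ID held 1.31% ± 0.244 in odo1i and 1.69% ± 0.368 in WT. Members ranked 11 to 20 held 4.69% ± 0.742 in odo1i and 5.86% ± 0.902 in WT, and those ranked 21 to 82 held 11.5% ± 0.463 in odo1i and 11.8% ± 1.17 in WT. None of the 5 shares compared gave an exact permutation p under 0.3, and all 5 were 0.7 after Benjamini-Hochberg adjustment. A share of 50% of all counts was reached with 592, 603 and 705 IDs in odo1i replicates 1, 2 and 4, against 574, 515 and 768 IDs in WT replicates 1, 2 and 4.

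The ID at the head of the order was not the same in the groups. Peaxi162Scf00889g00229 was the highest ID in each odo1i library, at 17335, 17151 and 17420.3 CPM, against 8130.1, 9769 and 8321 CPM in WT replicates 1, 2 and 4, where it ranked 8, 5 and 4. The groups did not overlap, and the odo1i libraries had a CV of 0.795%. Peaxi162Scf01081g00002 was the highest in each WT library. It had 15284, 13574 and 10471 CPM in odo1i, where it ranked 3 in each library, against 20131, 17694 and 12899 CPM in WT. The lowest WT library lay below both of the higher odo1i libraries, so the groups overlapped at this ID. Peaxi162Scf00123g00096 came close behind it, with 15774, 12187 and 9679 CPM in odo1i and 19040.5, 16341 and 12888 CPM in WT, and it also overlapped.

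These levels are relative to all RNA of a library, so that fewer cells of a type and less RNA per cell cannot be told apart in them. By edgeR's quasi-likelihood test with p adjusted over all genes tested, Peaxi162Scf00889g00229 had a log2 fold change of 0.94 ± 0.26 (SE, adjusted p = 0.171). Peaxi162Scf01081g00002 had -0.41 ± 0.32 (adjusted p = 0.592) and Peaxi162Scf00123g00096 had -0.40 ± 0.33 (adjusted p = 0.604). None of the 3 passed the threshold of 0.05 in edgeR. Peaxi162Scf00889g00229 passed it in DESeq2 (adjusted p = 4.63e-06) and in limma-voom with library quality weights (adjusted p = 0.0159).

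The other 7 of the 10 highest members differed in which group was ahead. Peaxi162Scf00599g00008 had 10409, 14385 and 16447 CPM in odo1i, against 3919, 7281 and 3249 CPM in WT. The groups did not overlap, and the ID ranked 2 by its odo1i mean and 19 by its WT mean. The fitted log2 fold change of 1.45 ± 0.41 (SE) had an adjusted p of 0.171 in edgeR, of 0.00178 in DESeq2 and of 0.0217 in the weighted limma-voom fit, so that the last 2 called it. Peaxi162Scf00294g00411 had 11722, 10984 and 10194 CPM in odo1i and 7551, 8779 and 5359 CPM in WT, again without overlap. Peaxi162Scf00231g00330 was steady in odo1i at 8758, 8504 and 8324 CPM, against 6320.2, 7964.5 and 4891 CPM in WT, and its groups did not overlap either. For these 2 IDs the log2 fold changes were 0.55 ± 0.30 and 0.36 ± 0.28 (SE), with edgeR adjusted p of 0.421 and 0.585. The fold changes use TMM, edgeR's scaling factor for differences in composition. With it the groups of Peaxi162Scf00231g00330 overlap, since odo1i replicate 4 (factor 1.04) comes to lie below WT replicate 2 (factor 0.938).

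In the opposite direction, Peaxi162Scf00488g00074 had 7874, 6380.4 and 3013 CPM in odo1i, against 13181, 11070 and 7902 CPM in WT. Its highest odo1i library lay just under its lowest WT library, and its log2 fold change was -0.93 ± 0.42 (SE, edgeR adjusted p = 0.350). Peaxi162Scf00858g00215 had 10385, 9470 and 7026 CPM in odo1i and 11448, 12394 and 11387 CPM in WT, with a log2 fold change of -0.43 ± 0.28 (SE, edgeR adjusted p = 0.506). In CPM the groups did not overlap at either ID. With TMM scaling they overlap at Peaxi162Scf00488g00074, where odo1i replicate 1 comes to lie above WT replicate 4. Peaxi162Scf00020g01714 (8929, 9620.5 and 8730.0 CPM in odo1i, 6994, 9414 and 6119 CPM in WT) and Peaxi162Scf00114g00001 (8243, 5251 and 4513 CPM in odo1i, 8167, 6183 and 5069 CPM in WT) overlapped. The log2 fold change of the first was 0.22 ± 0.28 and that of the second -0.15 ± 0.33 (SE), the second being 0.041 without WT replicate 1 and 0.033 without odo1i replicate 4.

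**Figure D2:**
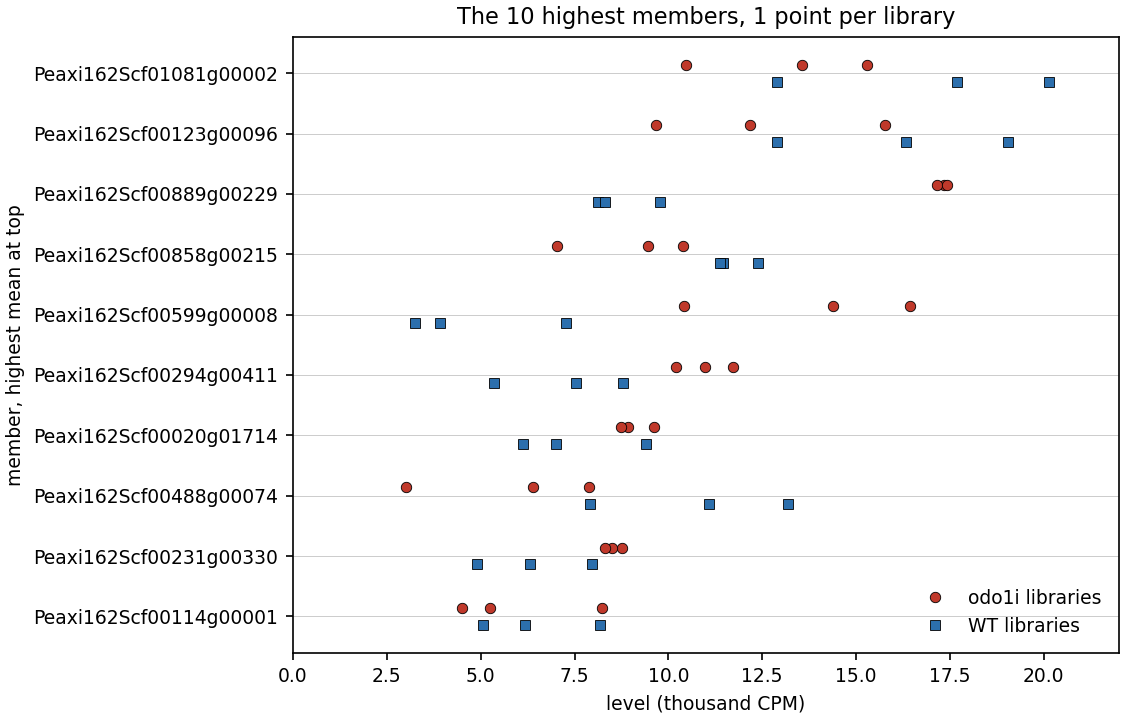
Each point is the level of a member in 1 library, in units of 1000 CPM, with odo1i above WT within each row and the 10 highest members from top to bottom. Peaxi162Scf00889g00229 sits at 17151 to 17420.3 CPM in the odo1i libraries and at 8130.1 to 9769 CPM in the WT libraries, while Peaxi162Scf01081g00002 overlaps between the groups.

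Neighbours in the order of means were often not ordered the same way in single libraries. Peaxi162Scf01081g00002 lay above Peaxi162Scf00123g00096 in 5 of the 6 libraries, whereas Peaxi162Scf00123g00096 lay above Peaxi162Scf00889g00229 in 0 of the 3 odo1i and in 3 of the 3 WT libraries. The same complete turn between the groups was seen for Peaxi162Scf00858g00215 over Peaxi162Scf00599g00008, with 0 of 3 odo1i and 3 of 3 WT libraries. Only 4 IDs were among the 10 highest of every library, and the 10 highest by odo1i mean shared 6 IDs with the 10 highest by WT mean. Further down, 46 members were among the 82 highest IDs of every library and 78 among the 200 highest. Rank correlations of the members' CPM were 0.802 to 0.943 between odo1i libraries and 0.846 to 0.925 between WT libraries, against 0.432 to 0.847 between an odo1i and a WT library (Spearman's rho over the 82 members, which share their libraries and are not replicates). Pairs of libraries were over 2-fold apart at 0 to 10 members within odo1i, at 0 to 7 within WT and at 3 to 28 between the groups.

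**Figure D3:**
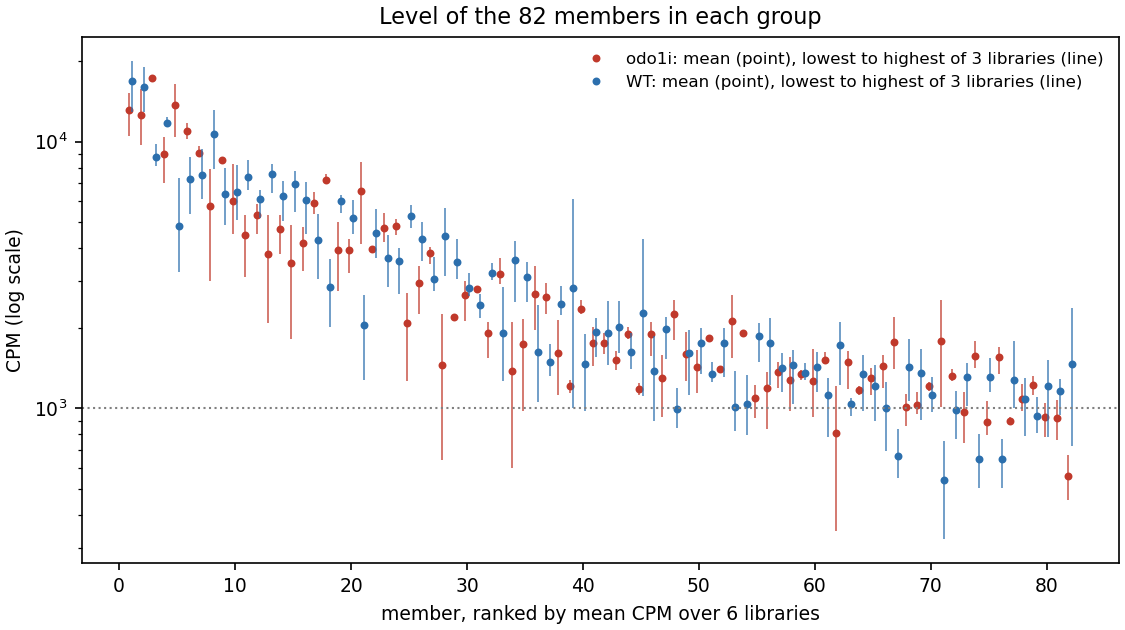
Members are ordered from left to right by mean CPM over the 6 libraries, on a log axis, with the mean of each group as a point and the range of its 3 libraries as a line. The dotted line is the 1000 CPM of the rule, and many members below the first ranks have group ranges that cross it.

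The rule's threshold cuts through a smooth slope of levels. The 3 members just inside it were Peaxi162Scf00058g00514, Peaxi162Scf00016g02329 and Peaxi162Scf00386g00921, which averaged 1072, 1039 and 1013 CPM. The 3 IDs just outside were Peaxi162Scf00328g00523, Peaxi162Scf00352g00039 and Peaxi162Scf00160g01744, at 999.8, 999.6 and 994.3 CPM. Averaging over both groups also kept IDs that were abundant in one of them. Both group means reached 1000 CPM in 68 members, 7 members were under it in odo1i and 7 were under it in WT, and 47 members reached it in every library. A further 10 IDs averaged at least 1000 CPM in odo1i and 13 in WT without being members.

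Counting error was a small part of the spread. The lowest count of any member in any library was 6800 in odo1i and 6031 in WT, and the counting error of a member had a median of 0.531% of its level in odo1i and 0.519% in WT. The spread between libraries was much wider, with a median CV of 15.1% in odo1i and 21.8% in WT, and a CV over 20% in 26 members in odo1i and 47 in WT. WT replicates 1 and 2 differed by a median of 0.22 on the log2 scale, whatever the sign. From WT replicate 4 they differed by 0.42 and 0.49. In odo1i the pairs differed by 0.13 (replicates 1 and 2), 0.41 (1 and 4) and 0.29 (2 and 4). The CV without WT replicate 4 was not computed. On the log2 scale the SD within a group had a median of 0.23 in odo1i and 0.32 in WT over the members. Over the 1763 tested genes of 100 to 1000 CPM it was 0.12 in odo1i and 0.24 in WT, and over all 17667 tested genes, which include many of low counts, it was 0.24 in odo1i and 0.36 in WT.

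Single libraries stood out at some members. The widest spread in WT was at Peaxi162Scf00375g00214, with 1203, 1143 and 1280 CPM in odo1i, against 1363, 1001 and 6091 CPM in WT replicates 1, 2 and 4. Next was Peaxi162Scf00120g01534, with 1245, 1120 and 1195 CPM in odo1i and 1422, 1108 and 4316 CPM in WT. Both were high in WT replicate 4 alone, and these were the only 2 members at which 1 library exceeded every other by over 2-fold. Without that library their log2 fold changes, -1.24 and -0.96 with all libraries, were -0.035 and -0.16.

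By the SD of log2 CPM the widest spread in odo1i was at Peaxi162Scf00311g00131 and Peaxi162Scf00207g00334, with 0.936 and 0.935, and Peaxi162Scf00314g00086 followed with 0.928. Peaxi162Scf00311g00131 had 1212, 863.1 and 345.7 CPM in odo1i, against 2103, 1847 and 1224 CPM in WT. Peaxi162Scf00314g00086 had 2260, 1476 and 638.1 CPM in odo1i, against 5643, 4552 and 3127 CPM in WT. Peaxi162Scf00207g00334 had 2115, 1431 and 596.6 CPM in odo1i, against 4246, 4075 and 2508 CPM in WT. In all 3, odo1i replicate 4 was lowest and the groups did not overlap in CPM. With TMM scaling they overlap at Peaxi162Scf00311g00131, where odo1i replicate 1 comes to lie above WT replicate 4. The odo1i mean of that ID, 807 CPM, is under 1000 CPM, so it passed the rule only through WT. At 6 members odo1i replicate 4 lay more than 2-fold below every other library, and no other library did so at any member. Over all 82 members the lowest of the 6 libraries was odo1i replicate 4 at 34 members and WT replicate 4 at 33. The labels do not say what the replicate number marks.

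None of the 82 members was called changed in odo1i at an adjusted p under 0.05, where edgeR called 111 of 17667 tested genes (0.628%). The lowest adjusted p of a member was 0.0675. At an unadjusted p under 0.05 there were 25 members (30.5%), 12 of them higher and 13 lower in odo1i. Among all tested genes 15.3% were at that level, 7.1% higher and 8.16% lower. Other tools called more: DESeq2 called 21 members (12 higher, 9 lower) beside 6.41% of all genes, and limma-voom with library quality weights called 17 (12 higher, 5 lower) beside 6.35%. The calls shared 16 members, which are 76.2% of those of DESeq2 and 94.1% of those of the weighted fit. Without WT replicate 4 edgeR called 2 members beside 2.42% of all genes. It called 1 member with library totals alone (0.911% of all genes) and 2 with the replicate number as a block (1.1%). It called none with RLE size factors (0.634% of all genes), with TMM factors from the other genes (0.623%), with a filter of 1 CPM in 3 libraries (0.869%) or with no filter (0.757%), nor did limma-voom without weights (0.662%). No member was called without WT replicate 1 (0.0165% of all genes), WT replicate 2 (0.114%), odo1i replicate 1 (0.0219%), odo1i replicate 2 (0%) or odo1i replicate 4 (0.0548%). In these fits 17 or more members had an unadjusted p under 0.05, and the share of all genes at that level was not computed.

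Without a call, the members still separated the groups often. At 43 members (52.4%) the 3 libraries of odo1i did not overlap the 3 of WT, 23 higher and 20 lower in odo1i. The same held for 23.4% of all tested genes, 14.4% higher and 9.07% lower, and for 33.6% of those of 100 to 1000 CPM. With CPM scaled by TMM, edgeR's factor for differences in composition, 37 members (18 higher, 19 lower) and 22.5% of tested genes did not overlap. Without WT replicate 4 it was 61 members (23 higher, 38 lower) and 37.9% of tested genes, while without odo1i replicate 1 it was 55 (35.2%), and without WT replicate 2 it was 52 (36.1%). Leaving out WT replicate 1 gave 47 (31.1%), odo1i replicate 4 gave 45 (29.7%) and odo1i replicate 2 gave 43 (29.7%). Leaving out a library cannot make separated groups overlap. These numbers could therefore only stay at 43 or rise, and they are no test of the separation. A member with 1 group mean under 1000 CPM passed the rule only through its higher group, which favours a difference, and 14 members were of this kind. Among the other 68 the groups did not overlap at 32 (47.1%), and 17 (25%) had an unadjusted edgeR p under 0.05. Taking these 68 alone disfavours a difference in turn. Whether these frequencies are particular to the members was not tested.

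The fitted differences were of moderate size. Log2 fold changes of the members ran from -1.64 to 1.68, with a median of -0.20 and quartiles of -0.58 and 0.40, and 33 were above 0 and 49 below. The median over all tested genes was -0.025, with quartiles of -0.37 and 0.25. At least a 2-fold difference was fitted at 9 members in favour of odo1i and 8 in favour of WT, together 20.7%, against 13.6% of all genes (4.31% higher, 9.27% lower) and 7.6% of those of 100 to 1000 CPM. Of the 9 members 5 passed the rule only through odo1i, and of the 8 members 2 only through WT, which favours a 2-fold difference by an amount that was not tested. The share at 2-fold or more was 14.7% over the 68 members with both group means of at least 1000 CPM, and 50% over the other 14. Taking the 68 alone disfavours a difference in turn, since it leaves out members that are low in 1 group. The median size of the difference, whatever its sign, was 0.48 on the log2 scale in the members, 0.23 in the genes of 100 to 1000 CPM and 0.31 in all genes. The 95% interval of a member's log2 fold change reached a median of 0.64 to each side, and it lay within 2-fold in either direction for 30 members (36.6%), against 47.7% of all genes. The median of the members was -0.048 without WT replicate 2 and -0.042 without odo1i replicate 4, with 39 members above 0 in each of these fits.

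**Figure D4:**
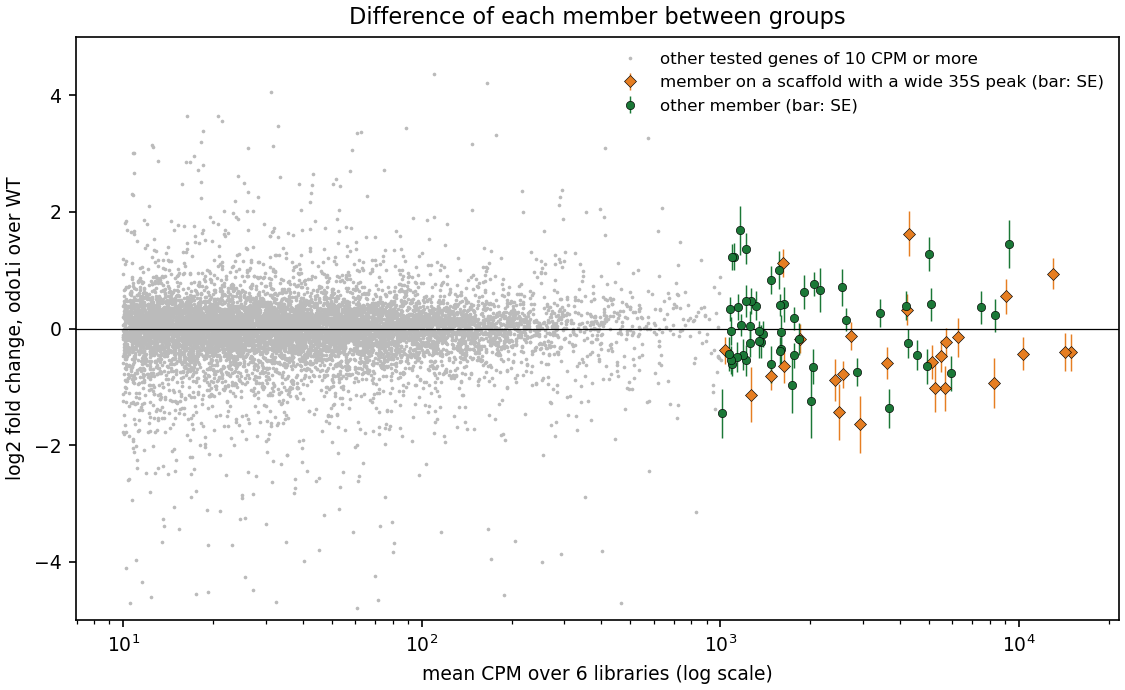
Each symbol is a member, with its mean CPM on a log axis and its log2 fold change of odo1i over WT with SE. Grey dots are 10201 other tested genes of at least 10 CPM, 21 of which lie beyond the axis. The 26 members with a wide 35S peak on their scaffold, drawn as diamonds, share 21 scaffolds, and 21 of these members lie below 0.

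The members with the largest fitted differences in favour of odo1i were Peaxi162Scf00436g00515 and Peaxi162Scf00047g01123. Peaxi162Scf00436g00515 had 1016, 1795 and 2557 CPM in odo1i, against 756.0, 531.0 and 324.0 CPM in WT. Its WT mean of 537 CPM is under 1000 CPM, so it passed the rule only through odo1i, where it is high. Its log2 fold change was 1.68 ± 0.42 (SE, edgeR adjusted p = 0.132). Peaxi162Scf00047g01123 had 4125, 7127 and 8382 CPM in odo1i, against 1276, 2191 and 2673 CPM in WT, with a log2 fold change of 1.63 ± 0.38 (SE, edgeR adjusted p = 0.119). DESeq2 and the weighted limma-voom fit called both IDs, with adjusted p of 0.000975 and 0.0267 for Peaxi162Scf00436g00515 and of 0.00015 and 0.00977 for Peaxi162Scf00047g01123. The edgeR fit with the replicate block also called Peaxi162Scf00047g01123 (adjusted p = 0.0286). At both IDs every odo1i library was above every WT library, and odo1i replicate 1 was the lowest of its group. Peaxi162Scf00047g01123 ranked 10 by its odo1i mean and 37 by its WT mean.

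The largest fitted differences in favour of WT were at Peaxi162Scf00314g00086, given above, and Peaxi162Scf00386g00921. Peaxi162Scf00314g00086 had a log2 fold change of -1.64 ± 0.49 (SE, edgeR adjusted p = 0.191). It was called with the replicate block (edgeR adjusted p = 0.0439), in DESeq2 (adjusted p = 0.00466) and in the weighted limma-voom fit (adjusted p = 0.0337). Peaxi162Scf00386g00921 had 454.6, 544.2 and 668.3 CPM in odo1i, against 2379, 1307 and 725.2 CPM in WT, with -1.45 ± 0.42 (SE, edgeR adjusted p = 0.181). Its highest odo1i and its lowest WT library were close to each other. Without WT replicate 4, that lowest library, it was called, at -1.79 with an edgeR adjusted p of 0.0283. Without WT replicate 1, its highest library, the log2 fold change was -0.94 with an edgeR adjusted p of 0.325. DESeq2 and the weighted limma-voom fit called it with all libraries, with adjusted p of 0.0061 and 0.0124. It is also the member nearest to the threshold of the rule, and its WT libraries differed 3.28-fold among themselves. Its odo1i mean of 556 CPM is under 1000 CPM, so it passed the rule only through WT, where it is high.

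The members nearest to a call, chosen after their values were seen, lay in the lower ranks. All 3 had WT means under 1000 CPM, so they passed the rule only through odo1i, where they are high. Peaxi162Scf00063g02323 had 1351, 1609 and 1697 CPM in odo1i, against 766.7, 659.1 and 504.9 CPM in WT, with a log2 fold change of 1.22 ± 0.22 (SE, edgeR adjusted p = 0.0675). Its adjusted p was 0.0317 without WT replicate 4 and 0.0481 when libraries were scaled by their totals alone, and it ran from 5.21e-06 to 0.313 over 15 alternatives. Peaxi162Scf00708g00012 had 1407, 1737 and 2200 CPM in odo1i and 547.9, 833.6 and 607.3 CPM in WT, with 1.37 ± 0.26 (SE, edgeR adjusted p = 0.0758). Peaxi162Scf00037g01622 had 1412, 1522 and 1787 CPM in odo1i and 503.2, 799.1 and 630.6 CPM in WT, with 1.23 ± 0.24 (SE, edgeR adjusted p = 0.0758). At all 3 every odo1i library was above every WT library, and DESeq2 and the weighted limma-voom fit called all 3.

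**Figure D5:**
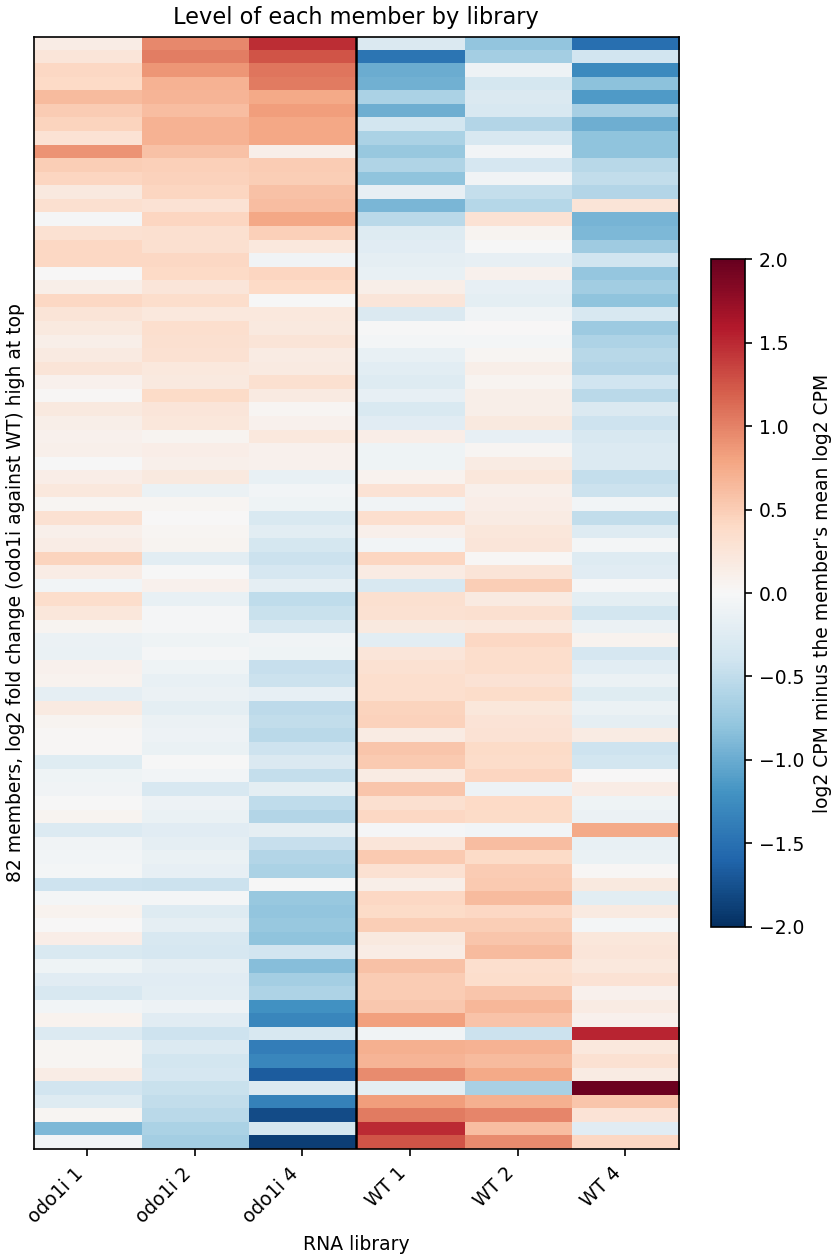
Rows are the 82 members, ordered by log2 fold change with those higher in odo1i at the top, and columns are the libraries, odo1i left of WT. Colour is log2 CPM minus the member's own mean over the 6 libraries. The deepest blue in the lower rows is in odo1i replicate 4, and the 2 darkest red cells of WT replicate 4 are the members that were high in it alone.

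Written as CPM, the difference in the members' share is a sum of parts of opposite sign. The 34 members with a higher mean in odo1i differed by 54073 CPM in sum, and the 48 with a lower mean by -59665 CPM, for a net -5592 CPM. The 3 largest differences in favour of odo1i made up 21990 CPM. The 23 members that lay wholly above WT held 9.30%, 10.2% and 10.7% of all counts in odo1i replicates 1, 2 and 4, against 5.19%, 6.41% and 4.58% in WT replicates 1, 2 and 4. The 20 that lay wholly below WT held 6.66%, 5.77% and 3.75% in odo1i, against 10.1%, 9.92% and 7.91% in WT. Since these members were picked by their lack of overlap, those shares are a description. The 39 members that overlapped held 11.3% on average in odo1i and 12.6% in WT, and 0 of them had an unadjusted edgeR p under 0.05.

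By rank, the members' differences had overlapping ranges, and the classes were not tested against each other. In the 10 highest members the median log2 fold change was 0.038, with 5 above 0 and 5 below. In members ranked 11 to 40 it was -0.46, with 11 above 0 and 19 below, and in those ranked 41 to 82 it was -0.14, with 17 above 0 and 25 below. Quartiles were -0.41 and 0.50 in the 10 highest, -0.78 and 0.38 in ranks 11 to 40 and -0.45 and 0.40 below. Without WT replicate 4 the medians were -0.12, -0.47 and -0.25. With each library left out in turn they ran from -0.12 to 0.17 in the 10 highest, from -0.54 to -0.30 in ranks 11 to 40 and from -0.25 to 0.045 below. In CPM the groups did not overlap at 6 of 10, 20 of 30 and 17 of 42 members in these classes, beside 23.4% of all tested genes. With TMM scaling they overlap at Peaxi162Scf00231g00330 and Peaxi162Scf00488g00074, both among the 10 highest, and the classes were not counted again on that scale. An example of a member that hardly differed is Peaxi162Scf00244g00029, chosen after its values were seen, with 1394, 1382 and 1278 CPM in odo1i and 1282, 1474 and 1304 CPM in WT. Its log2 fold change of -0.048 had a 95% interval from -0.47 to 0.37.

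The members lay on 75 scaffolds, of which 7 carried 2 members and none more. The next IDs on either side of a member, with other members left out, were all under 1000 CPM by the rule. Of 155 such neighbours that were not members, 16 averaged at least 100 CPM and 60 averaged under 1 CPM, with a median of 4.53 CPM. Over all 35812 IDs, with no filter, the median was 0.551 CPM and 53.4% averaged under 1 CPM, against 38.7% of the neighbours. At least 100 CPM was averaged by 5.15% of all IDs, against 10.3% of the neighbours. In 2 of the 7 pairs the members were next to each other in ID order. Peaxi162Scf00163g00910 (4853, 3893 and 1813 CPM in odo1i, 7738, 7662 and 5472 CPM in WT) and Peaxi162Scf00163g01014 (5317, 4012 and 2097 CPM in odo1i, 8272, 8003 and 6408 CPM in WT) were nearly the same in every library, with a ratio of 0.854 to 0.970. Their log2 fold changes were -1.02 and -1.03, and both lay wholly below WT in odo1i. Whether reads of these IDs could be told apart is not known, since the likeness of their sequences was not analysed here.

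The other adjacent pair was Peaxi162Scf00599g00002 and Peaxi162Scf00599g00008, with log2 fold changes of 0.62 and 1.45. Peaxi162Scf00599g00002 had 2253, 2265 and 2541 CPM in odo1i, against 1530, 1901 and 974.3 CPM in WT, and like its neighbour it did not overlap. The remaining 5 pairs had 3 to 114 IDs between them. In 2 of these the members differed in opposite directions. On Peaxi162Scf00314 the log2 fold change was 1.12 for Peaxi162Scf00314g00031 and -1.64 for Peaxi162Scf00314g00086, and on Peaxi162Scf00047 it was -0.24 for Peaxi162Scf00047g00011 and 1.63 for Peaxi162Scf00047g01123. The other 3 pairs shared a sign, with -0.57 and -0.38 on Peaxi162Scf00016, 0.47 and 1.23 on Peaxi162Scf00037, and -0.59 and -0.17 on Peaxi162Scf00959.

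The ChIP peak lists, which took no part in choosing the members, can be set beside them by scaffold only, since the positions of the IDs were not used here. Of the 103755 peaks of the 35S list 7.75% lay on the 75 scaffolds, and of the 98009 peaks of the pODO1 list 7.44%. The median of the authors' fold enrichment was alike, at 3.68 on member scaffolds and 3.70 elsewhere in the 35S list. In the pODO1 list it was 4.28 on and off them. Strong and wide peaks lay on member scaffolds more often than peaks in general. At 10-fold enrichment or more, 29 of 101 peaks of the 35S list and 24 of 231 of the pODO1 list lay there. At 800 bases or more it was 26 of 47 peaks (55.3%) and 12 of 40 (30%). The cause was not tested. Peaks of at least 800 bases were found on the scaffolds of 26 members in the 35S list and of 11 members in the pODO1 list. The strongest of them in the 35S list, at positions 696553 to 698366 of Peaxi162Scf00488, is on the scaffold of Peaxi162Scf00488g00074 and was enriched 17.6-fold by the authors' value. In the pODO1 list the strongest was at 10404 to 11466 of Peaxi162Scf00114, the scaffold of Peaxi162Scf00114g00001, at 15.3-fold.

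Members on scaffolds with a wide 35S peak were mostly lower in odo1i. Of these 26 members 21 had a log2 fold change below 0 and 5 above, with a median of -0.45, while the other 56 members were divided 28 to 28 with a median of 0.0013. The 26 lay on 21 scaffolds, and members of the same scaffold share its peaks, so they are not independent of each other. By CPM in odo1i, 11 of the 26 lay wholly below WT and 4 wholly above, against 9 and 19 of the other 56. Of all tested genes 9.07% lay wholly below WT and 14.4% wholly above. Without WT replicate 4 the medians were -0.61 and -0.083, and without odo1i replicate 4 they were -0.29 and 0.078. The 882 tested genes that are not members on the same scaffolds had a median of -0.023, with 456 below 0. Members with a wide peak were also the more abundant ones, with a median of 4257 CPM against 1586 CPM, and the part of level in the result was not tested.

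The width chosen and the list both mattered to the size of that difference. With a minimum of 500 bases, 33 of 53 members with a wide 35S peak were below 0, with a median of -0.24 against -0.048 for the other 29. At 1000 bases it was 15 of 17, with a median of -0.57 against -0.048 for the other 65. In the pODO1 list, with 800 bases, 10 of 11 members, which lay on 10 scaffolds, were below 0. Their median was -0.41 against -0.099 for the other 71. At 500 bases in that list it was 24 of 37, with a median of -0.24 against -0.17 for the other 45. Of the 11, 10 also had a wide peak of the 35S list on their scaffold, so the lists largely name the same members. The width of 800 bases came from earlier work on these data, and the difference in log2 fold change between members with and without a wide peak was noticed in the data and not tested.

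Of the 10 members with wide peaks in both lists on their scaffold, 4 lay wholly below WT in CPM, 1 wholly above and 5 overlapped. The overlapping ones include Peaxi162Scf01081g00002, Peaxi162Scf00123g00096 and Peaxi162Scf00114g00001, given above. Among the 4 is Peaxi162Scf00488g00074, which overlaps with TMM scaling. Also among the 4 are Peaxi162Scf00578g00014 and Peaxi162Scf00002g00037, chosen after their values were seen. The wide peaks on the scaffold of Peaxi162Scf00578g00014 lie at positions 157240 to 158602 in the 35S list and 157585 to 158518 in the pODO1 list. Peaxi162Scf00578g00014 had 2160.5, 2089 and 974.4 CPM in odo1i, against 3269, 3552 and 2504 CPM in WT, without overlap. Its log2 fold change was -0.88 ± 0.36 (SE, edgeR adjusted p = 0.312), and -0.58 without odo1i replicate 4. Peaxi162Scf00002g00037 had wide peaks on its scaffold at 5149610 to 5150788 in the 35S list and 5149734 to 5150758 in the pODO1 list. It had 1130.2, 1227 and 918.6 CPM in odo1i, against 2015, 2088 and 1498 CPM in WT, again without overlap, and a log2 fold change of -0.82 ± 0.23 (SE, edgeR adjusted p = 0.178, DESeq2 0.00994, weighted limma-voom 0.0273). The exception among the 11 members of the pODO1 list was Peaxi162Scf00047g01123, whose scaffold carries another member as well.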

How the data were processed

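Corolla RNA was sequenced in 6 libraries and anti-GFP ChIP in 2. The table the authors deposited holds whole-number counts, not normalized. Tools named in the submitters' processing notes are Bowtie2, cutadapt, DESeq2, HTSeq, MACS2 and TopHat2, with no role. The sources used here give neither the annotation release nor the use of strand or the treatment of multiply mapped reads. The peak lists follow the layout MACS2 writes. Their fold enrichment is the authors' deposited ratio, and their −log10 p and q, their integer score and their summit offset, also deposited by the authors, entered no result. The sources used here state no caller settings and no control, and positions are counted from 1.

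Library totals ran from 18612881 to 20591367 counts. Levels are CPM of the column totals. The test across genes was that of edgeR 4.0.16 (R 4.3.3), with filterByExpr (17667 genes kept), TMM scaling, the quasi-likelihood test and Benjamini-Hochberg adjustment over all of them; the standard error is the log2 fold change divided by the square root of F. The script was tested on simulated counts, drawn with the spread that edgeR fitted for a gene's level. In them edgeR called 7 of 20 members given a 2-fold change and 48 of 50 genes given a 16-fold change. A member that was not called may therefore still differ. Alternatives used DESeq2 1.42.0 and limma 3.58.1. Shares were compared by exact permutation over libraries (SciPy 1.17.1). Libraries of a group differed by 25.5 to 142.8 in chi-square per degree of freedom, more than sampling noise, and were kept as separate replicates.

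The members, the lists and the wide-peak width were chosen with earlier results of these data known. Members named are the 10 highest, the 2 highest and the 2 lowest by log2 fold change, the 3 just inside the threshold, the 2 of largest SD of log2 CPM per group and those sharing a scaffold. Others are marked as chosen after their values were seen. No gene names, lengths or sequences were used here, so the gene lists planned by name were not analysed.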

Additional observations from a re-analysis of the deposited data

How the results depend on the processing

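No member was called by edgeR, and this was also so with RLE size factors, with TMM from the genes that are not members, with no filter on low counts, with a filter of 1 CPM in 3 libraries and in limma-voom. Of the 82 members 1 was called with library totals alone, 2 with the replicate block, 21 by DESeq2 and 17 by limma-voom with quality weights, and 0 to 2 with 1 library left out. Over all genes, against 111 calls, there were 179 without a filter, 194 with the replicate block, 1133 by DESeq2 and 1122 with quality weights, and 0 to 435 with 1 library left out. Members at an unadjusted p under 0.05 numbered 25, against 43 by DESeq2, 51 with quality weights, 40 with the replicate block and 17 to 44 with 1 library left out. The share of all tested genes at that level was computed in the main fit only. Whether these shifts are particular to the members is therefore not known. The cause of these shifts was not tested. WT replicate 4 gave the upper end of each of these ranges. Same-numbered libraries of the groups deviated together with correlations of 0.189, 0.0977 and 0.115 across genes, 1 of them under the 0.1 needed to treat them as paired, while each of the 6 libraries correlated best with that of its number. Over the members alone the correlations of same-numbered libraries were 0.28, 0.235 and 0.184, all above 0.1. A pairing is therefore not excluded, and the fit with the replicate block stands beside the unpaired one.

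The median log2 fold change of the members ran from -0.28 to -0.04 with 1 library left out. Their number was 47 with 1000 CPM required in every library, 207 at a mean of 500 CPM and 39 at 2000 CPM. The difference in their share ran from -2.64 to 0.72 percentage points with 1 library left out, and was -0.39 with members chosen on the other 5 libraries. Members whose groups do not overlap numbered 37 to 61. The lowest number was with TMM scaling, since leaving out a library cannot lower the count of 43 found with all libraries. Of the 37 members followed, 35 kept their sign under 15 alternatives each. Most of these were picked by rank, fold change or scaffold. Over all 82 members, 76 kept their sign without WT replicate 2 and 76 without odo1i replicate 4, the lowest numbers of any alternative. Peaxi162Scf00114g00001 ran from -0.45 to 0.041 (0.033 without odo1i replicate 4) and Peaxi162Scf00244g00029 from -0.10 to 0.067. With at least 6031 counts per member and library, the spread between libraries limits these values more than depth. The values by rank class with libraries left out, those for members with both group means over the threshold, the checks on overlap and on unadjusted p, and the followed members outside the naming rule, were added after the data were seen.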
